A study of Homo sapiens with 12 samples.

Results

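The dual-specificity MAP kinase phosphatases are the enzymes that switch mitogen-activated protein kinases off, and 10 of the 58302 genes in the count table belong to this family: *DUSP1*, *DUSP2*, *DUSP4*, *DUSP5*, *DUSP6*, *DUSP7*, *DUSP8*, *DUSP9*, *DUSP10* and *DUSP16*. *DUSP2* was chosen because its MIB1 KO effect with BMP-on was among the largest in these same libraries. The other 9 are its paralogs and were taken by name, whatever their values. The values of *DUSP2* in any comparison that uses a BMP-on group are therefore given as a description without a test, and its comparison of KO with WT under BMP-off is tested.

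A MAP kinase is active when both a threonine and a tyrosine in its activation loop carry phosphate, and a MAP kinase phosphatase removes both. Many of these phosphatase genes are themselves transcribed in response to the signals they later damp, so their transcripts are commonly read as a feedback arm of a pathway. The family falls into nuclear, mostly inducible enzymes (*DUSP1*, *DUSP2*, *DUSP4*, *DUSP5*), cytoplasmic enzymes that prefer ERK (*DUSP6*, *DUSP7*, *DUSP9*), and enzymes that prefer the stress-activated kinases JNK and p38 (*DUSP8*, *DUSP10*, *DUSP16*). RNA-seq measures their transcripts and says nothing of enzyme amount or activity.

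The study asked how loss of MIB1, an E3 ubiquitin ligase, alters the transcriptional response of NCIH838 lung cancer cells to bone morphogenetic protein (BMP). The cells were a MIB1-iKO line, a single-cell clone with a doxycycline (Dox) inducible Cas9 and an sgRNA against *MIB1*, and the clone used is not named. All groups spent 3 days in 50 nM of the BMP type I receptor inhibitor LDN, with 0.5 µg/ml Dox in the MIB1 KO groups and without Dox in the MIB1 WT groups. All groups then received 10 ng/ml BMP4 for 24 hours, together with LDN (BMP-off) or with DMSO (BMP-on). Each of the 4 groups (MIB1 WT or KO, BMP-off or BMP-on) had 3 libraries. Every KO library and no WT library saw Dox and active Cas9, so their effects and those of MIB1 loss cannot be told apart. The labels do not say that replicates were separate cultures, so p-values measure the spread between these libraries, which may be technical.

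Library totals ran from 19124010 to 29498000 gene counts, and 17188 genes, all 10 family members among them, passed the filter on low counts. *MIB1* lay at 144 to 176 counts per 1000000 library counts (CPM) in the 6 WT libraries and at 31.0 to 34.4 CPM in the 6 KO libraries, a log2 fold change of -2.34 with BMP-on and -2.23 with BMP-off. The epithelial keratin genes *KRT8* (2307 to 4923 counts) and *KRT18* (3169 to 4517 counts) were high in every library and *EPCAM* (100 to 263 counts) and *CDH1* (129 to 228) were lower, while *KRT19* had 0 to 2 counts. Of the lung lineage markers, *NKX2-1*, *SFTPB* and *SFTPC* never exceeded 2 counts and *NAPSA* had 6 to 27. Of 6 markers of other cell types, the leukocyte marker *PTPRC* was at 0 and *PECAM1*, *CDH5*, *COL3A1* and *PDGFRB* did not exceed 42 counts, but the collagen gene *COL1A1* had 275 to 1071. With BMP in KO, where 22.0% of all tested genes were called, *COL1A1* rose by 1.39 on the log2 scale (edgeR adjusted p = 0.000602). *PDGFRB* rose there by 0.92 (edgeR adjusted p = 0.0141) and *KRT8* by 0.61 (edgeR adjusted p = 0.00413), and *CDH5* fell by 2.28 (edgeR adjusted p = 0.0316). The *CDH5* value lies near the floor, with 7 to 14 counts per library in KO BMP-off and 1 to 3 in KO BMP-on. *EPCAM* fell with BMP by 0.56 in WT (edgeR adjusted p = 0.00794) and by 0.61 in KO (edgeR adjusted p = 0.00152). *CDH1* and *KRT18* were not called for BMP in either genotype. The part of these marker changes in the family's values was not tested. Libraries differed in how their genes deviated with transcript GC content, with a Spearman rho across genes between -0.603 and 0.586, and the members with the most GC-rich transcripts, *DUSP2*, *DUSP8* and *DUSP9*, are also given with a GC correction.

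The 250 bases upstream of *DUSP2* and *DUSP1* are shown because these were the family members with the largest BMP differences. They were read from RefSeq promoter sequences on GRCh38.p14, chr2:96145441-96145690 and chr5:172771196-172771445, both on the minus strand and written 5′ to 3′. Capitals mark GGCGCC, the GC-rich core bound by the BMP-activated SMAD proteins, and TGACGTCA, the cAMP response element.
DUSP2: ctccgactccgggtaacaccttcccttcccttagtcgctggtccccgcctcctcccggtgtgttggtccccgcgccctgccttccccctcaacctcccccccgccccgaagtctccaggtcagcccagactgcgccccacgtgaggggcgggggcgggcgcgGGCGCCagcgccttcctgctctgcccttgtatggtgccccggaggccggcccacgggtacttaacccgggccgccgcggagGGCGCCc
DUSP1: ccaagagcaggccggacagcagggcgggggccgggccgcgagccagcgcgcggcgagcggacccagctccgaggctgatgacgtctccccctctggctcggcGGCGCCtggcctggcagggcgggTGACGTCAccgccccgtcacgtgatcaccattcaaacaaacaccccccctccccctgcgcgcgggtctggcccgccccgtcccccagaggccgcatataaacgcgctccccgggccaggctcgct
The *DUSP2* sequence held GGCGCC at 2 places, starting 88 and 7 bases before the transcription start, and the *DUSP1* sequence held it once, 148 bases before the start, with TGACGTCA once, 125 bases before it. In windows of 300 bases (250 upstream, 50 downstream), searched on both strands, GGCGCC occurred in 19.2% of 35116 RefSeq promoters and at least 2 times in 4.35%. It was found in 6 of the 10 windows available for 8 family members, those of *DUSP1*, *DUSP2*, *DUSP7*, *DUSP9*, *DUSP10* and *DUSP16* among them. TGACGTCA occurred in 1.85% of all windows and, in the family, in those of *DUSP1* and *DUSP8*. The palindrome GTCTAGAC (0.202% of all windows), the AP-1 element TGANTCA (7.71%) and the ETS core CCGGAAG (10.3%) were in none of the 10 family windows. The family windows were GC-rich, at 55.0% to 78.3% against a median of 58.7% over all promoters, with *DUSP2* at 75.0% and *DUSP1* at 73.3%. A match describes the letters in the window only.

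*DUSP2*, a nuclear phosphatase first known as an activation-induced gene of T cells, was at a low level with BMP-off and highest in MIB1 KO cells with BMP-on. The gene lies at chr2:96143169-96145440 (GRCh38, minus strand) and has 4 exons. With BMP-off it measured 6.22, 6.52 and 7.73 CPM in the WT libraries and 8.62, 5.95 and 9.84 CPM in the KO libraries, and these groups overlapped. With BMP-on it measured 29.6, 18.6 and 21.4 CPM in WT and 62.7, 72.0 and 61.0 CPM in KO. Every BMP-on library lay above every BMP-off library, and the lowest KO library with BMP-on was above the highest WT library with BMP-on. These values rested on 148 to 1636 counts per library.

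As fitted by edgeR, the log2 difference of *DUSP2* between BMP-on and BMP-off was 1.77 in WT, 3.40-fold, and 3.00 in KO, 8.01-fold. The KO to WT difference with BMP-on was 1.49, 2.82-fold, and the difference between both BMP responses was 1.24. By the size of a positive log2 difference among 17188 genes, *DUSP2* stood at rank 12 for BMP in WT, rank 2 for BMP in KO and rank 6 for KO against WT with BMP-on. Between genotypes with BMP-off the log2 fold change was 0.26 (SE 0.22, 95% interval -0.24 to 0.75, edgeR Benjamini-Hochberg adjusted p = 0.688), so no difference was detected and the interval allows one of up to 0.75.

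*DUSP2* has a GC-rich transcript (63.9%, percentile 95.7 of the tested genes). Its order among replicates ran with the GC trend of the libraries in both BMP-off groups. In WT BMP-off, replicates 1, 2 and 3 measured 6.22, 6.52 and 7.73 CPM at a GC rho of -0.425, 0.115 and 0.396. In KO BMP-off, replicate 2 had the lowest *DUSP2* level and a rho of -0.603, while replicate 3 had the highest and a rho of 0.586. In WT BMP-on the order ran the other way, with the highest *DUSP2* level in replicate 1 (rho -0.155) and the lowest in replicate 2 (rho 0.132), and in KO BMP-on the library with the highest level, replicate 2, had a rho of -0.037, between those of the others. With a GC correction of the counts, the BMP difference was 1.63 in WT and 2.62 in KO, and the KO to WT difference was 1.41 with BMP-on. The corrected BMP-off value was 0.41 (edgeR adjusted p = 0.556).

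**Figure D1:**
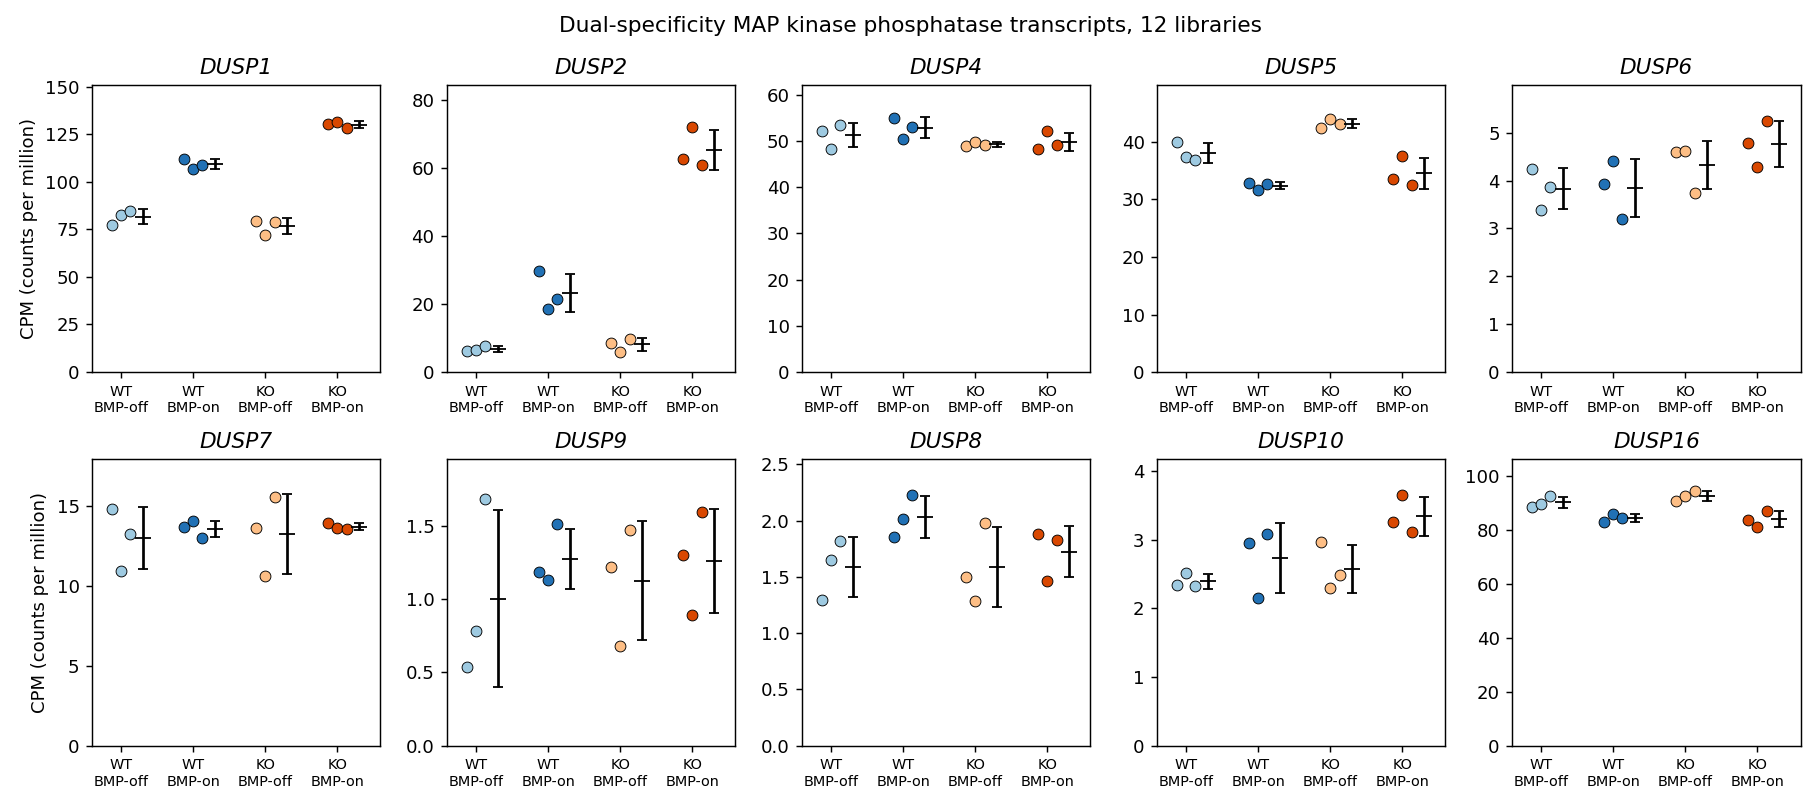
Level of each of the 10 phosphatase genes (y axis, CPM, starting at 0) in the 12 libraries by group, with each point 1 library and the bar the mean and SD of 3. *DUSP2* lies between 61.0 and 72.0 CPM in the KO BMP-on libraries and *DUSP1* between 128 and 132 CPM, above every other library of each gene.

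*DUSP1*, the immediate-early stress-induced phosphatase that acts on JNK, p38 and ERK in the nucleus, rose with BMP in both genotypes and was higher in KO than in WT with BMP-on. It lies at chr5:172768096-172771195 (minus strand). With BMP-off it measured 77.4, 82.8 and 84.9 CPM in WT and 79.3, 72.2 and 79.1 CPM in KO. With BMP-on it measured 112, 107 and 109 CPM in WT and 130, 132 and 128 CPM in KO. The BMP-on groups overlapped neither the BMP-off groups nor each other.

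The log2 rise of *DUSP1* with BMP was 0.42 in WT (SE 0.051, edgeR adjusted p = 0.000104) and 0.76 in KO (SE 0.051, edgeR adjusted p = 5.52e-08). KO exceeded WT by 0.25 with BMP-on (SE 0.050, edgeR adjusted p = 0.00848), while with BMP-off the difference was -0.087 (edgeR adjusted p = 0.570). The call with BMP-on was lost without WT BMP-on replicate 2 (edgeR adjusted p = 0.0566). The test of whether the BMP response differed between genotypes gave 0.34 (SE 0.072) with an edgeR adjusted p of 0.0741 and an unadjusted p of 0.000255, which missed the threshold of 0.05 after adjustment. It passed the threshold under 5 of the alternatives, with DESeq2 at an adjusted p of 0.00864 among them.

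*DUSP4*, a nuclear phosphatase of ERK and JNK that ERK signalling induces, did not pass the test in any comparison. It measured 52.1, 48.3 and 53.4 CPM in WT BMP-off, 55.1, 50.5 and 53.0 in WT BMP-on, 49.0, 49.9 and 49.1 in KO BMP-off, and 48.3, 52.1 and 49.1 in KO BMP-on. The 4 groups spanned less than the range of *DUSP1* or *DUSP2*, and each BMP-on group overlapped its BMP-off group. The log2 differences were 0.042 for BMP in WT, 0.015 for BMP in KO, -0.085 between KO and WT cells under BMP-on and -0.058 between them under BMP-off.

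*DUSP5*, a nuclear phosphatase specific for ERK, fell with BMP in both genotypes, opposite to *DUSP1*. The gene lies at chr10:110497907-110511533 (plus strand). It measured 40.0, 37.3 and 36.8 CPM in WT BMP-off against 32.9, 31.7 and 32.7 CPM in WT BMP-on. In KO it measured 42.5, 43.9 and 43.1 CPM with BMP-off against 33.6, 37.6 and 32.4 CPM with BMP-on. In each genotype all BMP-on libraries lay below all BMP-off libraries, and with BMP-off all KO libraries lay above all WT libraries.

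The log2 change of *DUSP5* with BMP was -0.32 in KO (SE 0.062, edgeR adjusted p = 0.00137) and held under all 23 alternatives, between -0.47 and -0.29. In WT it was -0.23 (SE 0.062, edgeR adjusted p = 0.0475), a call lost under 14 of the 23 alternatives. Among these were leaving out any 1 of the 6 WT libraries, KO BMP-off replicate 1 or KO BMP-on replicate 1 or 3, with edgeR adjusted p between 0.0584 and 0.195. KO against WT gave 0.18 with BMP-off (SE 0.061, edgeR adjusted p = 0.384, unadjusted p = 0.00934) and 0.089 with BMP-on (edgeR adjusted p = 0.599). The processed pseudogene *DUSP5P1*, which could share reads with *DUSP5*, had 45 to 89 counts per library.

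*DUSP6*, the cytoplasmic ERK phosphatase that is a standard readout of ERK output in many tissues, was low here and passed no test. It measured 4.24, 3.39 and 3.87 CPM in WT BMP-off, 3.92, 4.41 and 3.20 in WT BMP-on, 4.61, 4.62 and 3.74 in KO BMP-off, and 4.79, 4.28 and 5.24 in KO BMP-on. The KO and WT libraries overlapped with BMP-on, where KO against WT gave a log2 value of 0.32 (edgeR adjusted p = 0.328). BMP gave 0.15 in KO (edgeR adjusted p = 0.498).

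*DUSP7*, a close relative of *DUSP6* that also prefers ERK, ranged from 10.6 to 15.6 CPM, with both extremes in KO BMP-off. Those were replicates 2 and 3, the libraries with the GC rho of -0.603 and 0.586, and its adjusted p was at least 0.81 in every comparison. *DUSP9*, an ERK-preferring phosphatase best known from placenta and metabolic tissue, was near the limit of measurement, with 15 to 42 counts per library. Its level ran from 0.539 to 1.68 CPM, both in WT BMP-off, so that group alone covered the whole range of the other 3.

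*DUSP8*, which acts on JNK and p38 and is best known from brain and heart, had 28 to 62 counts per library, and its level of 1.29 to 1.82 CPM in WT BMP-off and 1.86 to 2.23 CPM in WT BMP-on did not overlap. The log2 difference there was 0.38 and did not pass the test (edgeR adjusted p = 0.374). *DUSP8* and *DUSP9* have the most GC-rich transcripts of the family (percentiles 98.3 and 97.8 of the tested genes). In KO BMP-off both were lowest in replicate 2, at 1.29 and 0.683 CPM (GC rho -0.603). There they were highest in replicate 3, at 1.98 and 1.47 CPM (rho 0.586). In WT BMP-off both were lowest in replicate 1, at 1.29 and 0.539 CPM (rho -0.425). In that group they were highest in replicate 3, at 1.82 and 1.68 CPM (rho 0.396). With the GC correction the BMP difference of *DUSP8* was 0.21 in WT and -0.31 in KO, and that of *DUSP9* was 0.24 and -0.23, none of which passed the test (edgeR adjusted p 0.221 to 0.695). *DUSP10*, a JNK and p38 phosphatase that restrains inflammatory signalling, had 51 to 86 counts per library. Its libraries in KO BMP-on (3.26, 3.66 and 3.11 CPM) lay above those in KO BMP-off (2.97, 2.29 and 2.48 CPM) and in WT BMP-on (2.95, 2.16 and 3.09 CPM). Neither difference passed, with log2 values of 0.36 for BMP in KO (edgeR adjusted p = 0.113) and 0.29 for KO against WT (edgeR adjusted p = 0.447).

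*DUSP16*, a JNK-directed phosphatase that moves between cytoplasm and nucleus, had small differences between groups. Per length it was second to *DUSP1* in 3 groups and below *DUSP2* in KO BMP-on. It lies at chr12:12473282-12562863 (minus strand). It measured 88.3, 89.4 and 92.5 CPM in WT BMP-off, 82.9, 86.0 and 84.4 in WT BMP-on, 90.5, 92.4 and 94.2 in KO BMP-off, and 83.6, 81.0 and 87.0 in KO BMP-on. In both genotypes the BMP-on libraries lay below the BMP-off libraries. The log2 change with BMP was -0.14 in KO (SE 0.046, edgeR adjusted p = 0.0395), and -0.093 in WT (SE 0.046, edgeR adjusted p = 0.352). The call in KO was lost under 11 of 23 alternatives, among them leaving out WT BMP-on replicate 3, any 1 KO BMP-off library or KO BMP-on replicate 1 or 2, with edgeR adjusted p between 0.0523 and 0.132.

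Over the 9 paralogs of *DUSP2*, BMP in WT called 2 (*DUSP1* higher, *DUSP5* lower) where 3.92% of all tested genes were called, 1.91% higher and 2.01% lower. BMP in KO called 3 (*DUSP1* higher, *DUSP5* and *DUSP16* lower), or 33.3%, where 22.0% of all genes were called, 11.1% higher and 10.9% lower. KO against WT with BMP-on called 1, *DUSP1*, where 3.67% of all genes were called and 1.32% called higher, and because *DUSP2* was chosen on that contrast nothing is read from the family's count there. With BMP-off no member of 10 was called, where 0.0407% of all genes were, and 1 (*DUSP5*) had an unadjusted p under 0.05, as did 10.2% of all genes. The difference of responses called none of the 9, where 0.0931% of all genes were called, and 1 (*DUSP1*) had an unadjusted p under 0.05, as did 10.6% of all genes. With an absolute log2 difference of at least 1 also required, none of the 9 was called, where 0.425% of all genes were for BMP in WT, 1.66% for BMP in KO and 0.140% between genotypes with BMP-on.

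Groups did not overlap for 4 of the 9 paralogs with BMP in WT (23.9% of all genes), 4 with BMP in KO (35.8%), 2 between genotypes with BMP-on (23.6%) and, of the 10 members, 1 between genotypes with BMP-off (11.7%). The median log2 difference of the 9 was 0.060 in WT and 0.14 in KO, beside 0.0016 and 0.0056 over all tested genes. The comparisons share groups of libraries with each other, so their values stand side by side and are not independent.

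**Figure D2:**
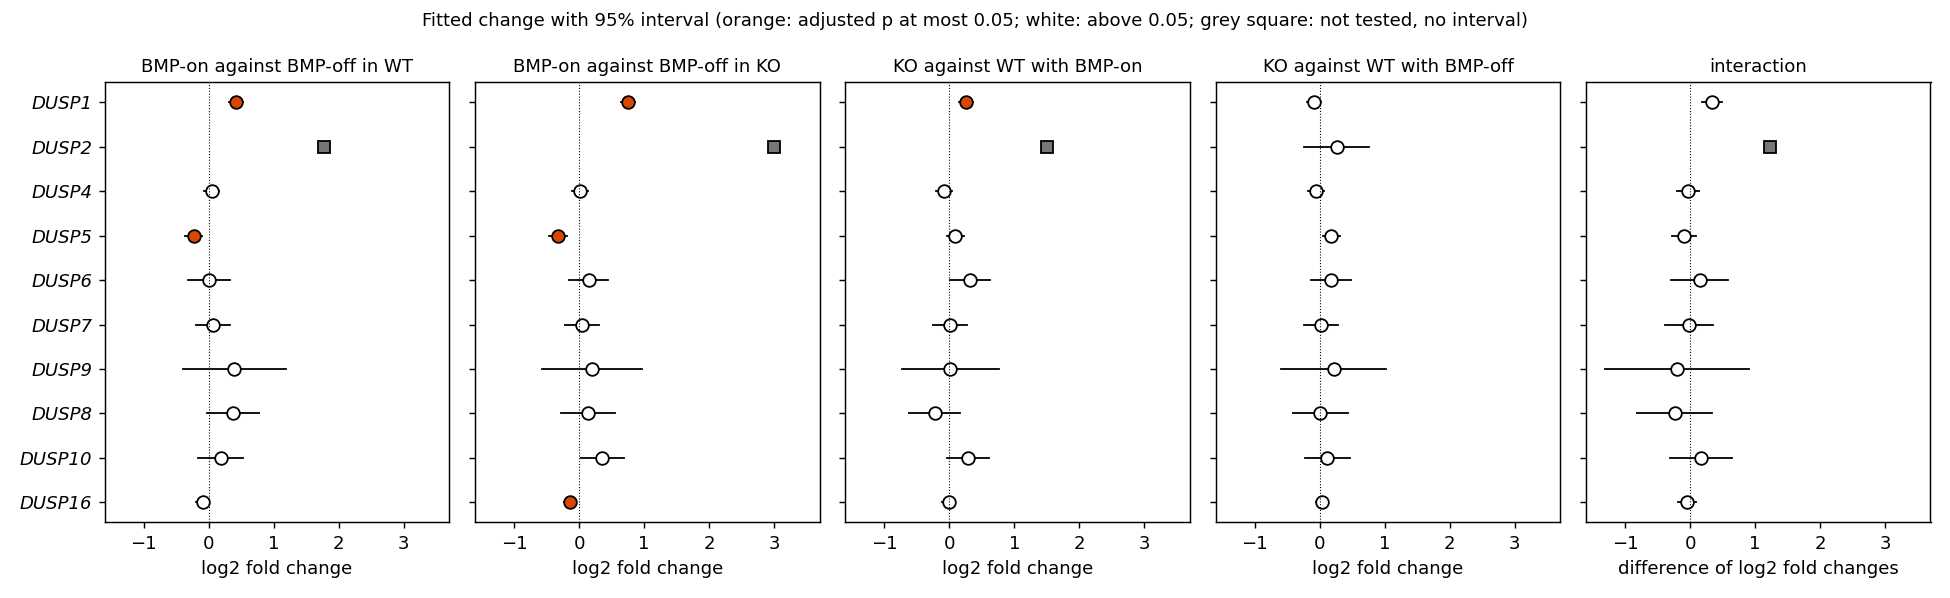
Fitted log2 difference (x axis) for the 10 phosphatase genes (y axis) in 5 comparisons, with the 95% interval of each tested value, orange points for an adjusted p of at most 0.05, white points above it and grey squares without interval for the untested *DUSP2* values. *DUSP2* lies at 1.77, 3.00, 1.49 and 1.24 in the comparisons with a BMP-on group, and *DUSP1* is the only paralog called in 3 of them.

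Levels can be compared between genes only per length, on the deposited RPKM scale (reads per kilobase of gene model and per 1000000 reads). Averaged over the 12 libraries, *DUSP1* was highest at 51.2 RPKM, followed by *DUSP16* at 17.4, *DUSP2* at 15.8, *DUSP5* at 15.1, *DUSP4* at 7.29 and *DUSP7* at 4.17 RPKM. *DUSP10* (1.07), *DUSP6* (0.961), *DUSP9* (0.481) and *DUSP8* (0.402 RPKM) closed the order. Of neighbours in this order, *DUSP16* and *DUSP2*, *DUSP2* and *DUSP5*, *DUSP10* and *DUSP6*, and *DUSP9* and *DUSP8* had overlapping ranges over the libraries. *DUSP2* moved through the order, from rank 5 of 10 in both BMP-off groups to rank 3 in WT BMP-on and rank 2 in KO BMP-on.

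Summed over the family, the transcripts came to 94.2 ± 2.46 RPKM in WT BMP-off, 115 ± 5.38 in WT BMP-on, 95.9 ± 2.21 in KO BMP-off and 151 ± 5.37 in KO BMP-on (SD, n = 3). *DUSP2* made up 4.48% of that sum in WT BMP-off, 12.3% in WT BMP-on, 5.27% in KO BMP-off and 26.3% in KO BMP-on. *DUSP1* stayed between 41.9% and 48.9% in the 4 groups. The nuclear subclass held 73.9% of the sum in WT BMP-off and 84.1% in KO BMP-on, while the cytoplasmic ERK phosphatases held 5.70% and 3.87% and the JNK and p38 phosphatases 20.4% and 12.01%. These sums and shares contain *DUSP2*, which was chosen for its level in KO BMP-on. Without it, the 9 paralogs came to 90.0 ± 2.01 RPKM in WT BMP-off, 100.5 ± 1.85 in WT BMP-on, 90.8 ± 1.06 in KO BMP-off and 111 ± 1.67 in KO BMP-on. The nuclear members held 72.6% of this sum in WT BMP-off and 78.5% in KO BMP-on. Of these members only *DUSP1* was higher in KO BMP-on, at 66.2 against 42.4 RPKM in WT BMP-off. *DUSP4* was at 7.07 against 7.40 RPKM and *DUSP5* at 13.9 against 15.6 RPKM. In WT BMP-off and KO BMP-on the JNK and p38 phosphatases themselves stood at 19.3 ± 0.422 and 18.1 ± 0.512 RPKM and the cytoplasmic subclass at 5.38 ± 0.761 and 5.82 ± 0.249 RPKM. The smaller shares of both subclasses went with a larger family sum and, for the JNK and p38 phosphatases, also with a lower sum of their own.

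**Figure D3:**
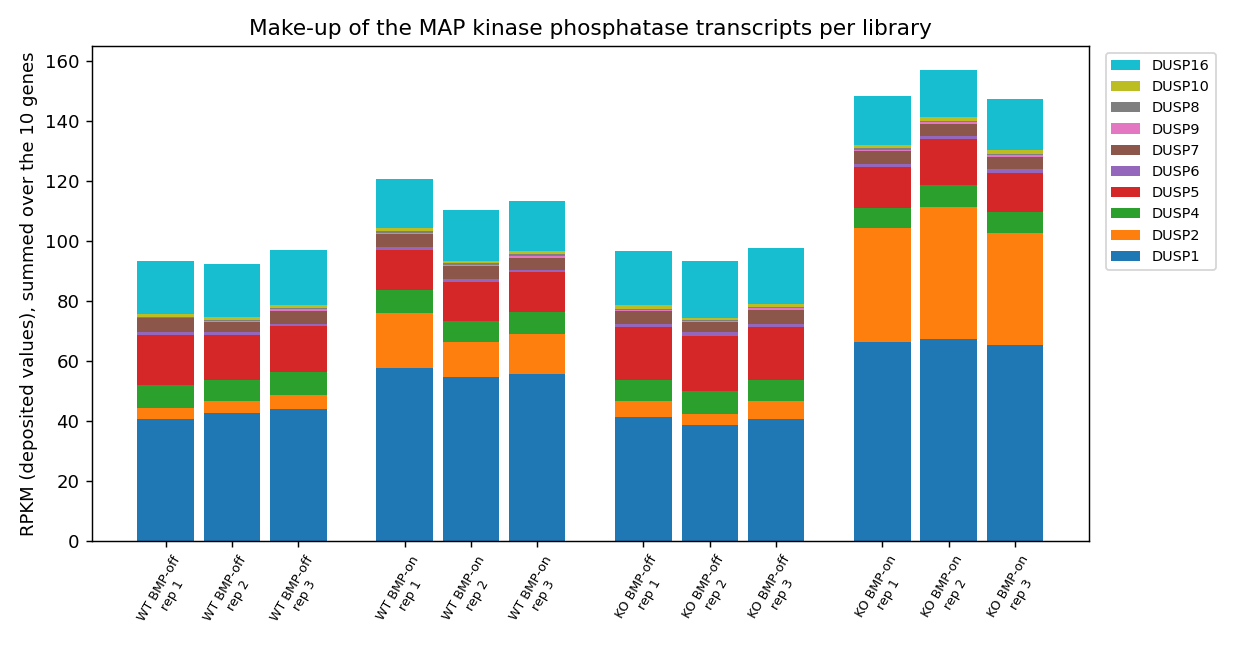
Stacked bars of the deposited RPKM (y axis) of the 10 phosphatase genes in each of the 12 libraries (x axis). The bars of KO BMP-on are the tallest, at a mean of 151 RPKM, and the *DUSP2* segment takes 26.3% of them against 4.48% in WT BMP-off.

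Across the 12 libraries the log2 CPM of *DUSP2* and *DUSP1* had a Pearson r of 0.975, *DUSP2* and *DUSP10* 0.788, *DUSP2* and *DUSP5* -0.646, and *DUSP2* and *DUSP16* -0.804. These describe 12 points that fall into 4 groups and share depth and GC trend, so no p is given. *DUSP2* was chosen for its KO effect with BMP-on, which enters every r with it, so its matches are a description only. Of 12836 genes with a mean of at least 50 counts, those most like *DUSP2* were *CDKN1A* (r = 0.994) and *CDKN2C* (0.992), both inhibitors of cyclin-dependent kinases, and *DLX2* (0.989), a homeobox gene. Those most like *DUSP1* were *LGMN* (0.992), which encodes the lysosomal protease legumain, *FGFR3* (0.990), an FGF receptor, and *ANKH* (0.989). The pattern of *DUSP6* was matched less closely, by *MAP3K1* (0.905), a kinase upstream of JNK, the gene with Ensembl ID ENSG00000243444 (0.873) and *ATP6V1C1* (0.862). All these matches are the highest among 12836 r values over 12 libraries, and whether they exceed chance was not tested. *DUSP6* had only 78 to 135 counts per library and passed no test, so its matches may reflect noise.

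All 10 listed MAP kinase genes were tested, and 1 was called in any comparison. *MAPK14*, which encodes p38α, fell by 0.15 on the log2 scale with BMP in KO (edgeR adjusted p = 0.0191), from 106.4 ± 2.05 to 95.6 ± 3.57 CPM (SD, n = 3). That call was lost under 4 of 23 alternatives (edgeR adjusted p 0.0727 to 0.0817). These were leaving out KO BMP-off replicate 1 or KO BMP-on replicate 1 or 2, and fitting only the groups compared. Of the 7 MAP kinase kinase genes, *MAP2K6*, an activator of p38, fell with BMP in WT (log2 -0.37, edgeR adjusted p = 0.0282) and in KO (-0.49, edgeR adjusted p = 0.00108). The call in WT was lost without any 1 of the WT libraries other than BMP-on replicate 3 (edgeR adjusted p 0.0693 to 0.150). It was also lost in limma on log2(RPKM + 1) with no filter (adjusted p = 0.0800). *MAP2K3*, another activator of p38, rose by 0.33 with BMP in KO (edgeR adjusted p = 0.00655). The *MAP2K3* call was lost with the GC correction (0.084, edgeR adjusted p = 0.329) and in limma on log2(RPKM + 1) with no filter (adjusted p = 0.0513). The calls were 0 of 10 and 1 of 7 for BMP in WT, where 3.92% of all genes were called, and 1 of 10 and 2 of 7 for BMP in KO, where 22.0% were.

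Among 17 other dual-specificity phosphatase genes, 11 were tested, and BMP called 1 in WT and 2 in KO, beside 3.92% and 22.0% of all genes. *STYX*, a catalytically inactive member, rose with BMP by 0.22 in WT (edgeR adjusted p = 0.0372) and 0.17 in KO (edgeR adjusted p = 0.0439), and these calls were lost under 12 and 18 of 23 alternatives. Leaving out a library ended the WT call for any of the 6 WT libraries, KO BMP-off replicate 1 and KO BMP-on replicate 1 (edgeR adjusted p 0.0597 to 0.184), and the KO call for every library but KO BMP-on replicate 2 (0.0514 to 0.258). *DUSP23*, a small atypical phosphatase, rose by 0.45 with BMP in KO (edgeR adjusted p = 0.00480), from 10.6 ± 0.952 to 14.5 ± 1.21 CPM (SD, n = 3). With the GC correction its difference was 0.057 (edgeR adjusted p = 0.696).

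Of 14 genes commonly read as output of the ERK pathway, 13 were tested. *CCND1*, which encodes cyclin D1, rose by 0.26 with BMP in WT (edgeR adjusted p = 0.00929) and by 0.26 in KO (edgeR adjusted p = 0.00249). The WT call was lost without WT BMP-off replicate 2 or 3 or WT BMP-on replicate 1 (edgeR adjusted p 0.0560 to 0.0961) and, in limma on log2(RPKM + 1), log2(RPKM + 0.1) and log2(RPKM + 1) with no filter, at adjusted p of 0.0643, 0.0616 and 0.136, and the KO call under the last of these (0.0594). *SPRY2*, a feedback inhibitor of receptor tyrosine kinase signalling, rose by 0.55 with BMP in KO (edgeR adjusted p = 0.00147), and *FOS*, an AP-1 subunit, by 0.43 (edgeR adjusted p = 0.00232). The list thus had 1 of 13 called in WT and 3 of 13 in KO, beside 3.92% and 22.0% of all genes. *SPRY2* was also the 1 gene of 13 called for KO against WT with BMP-on, where 3.67% of all genes were called and 1.32% called higher, at 10.7 ± 1.41 against 7.81 ± 0.558 CPM (SD, n = 3; log2 0.44, edgeR adjusted p = 0.0233). That call was lost under 9 of 23 alternatives, among them leaving out any 1 WT BMP-on library or KO BMP-on replicate 2 or 3 (edgeR adjusted p 0.0548 to 0.148). For KO against WT with BMP-off and for the difference of responses, 0.0407% and 0.0931% of all genes were called, and none of the listed kinases, phosphatases or output genes was among them, which at such shares describes nothing particular to the lists.

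**Figure D4:**
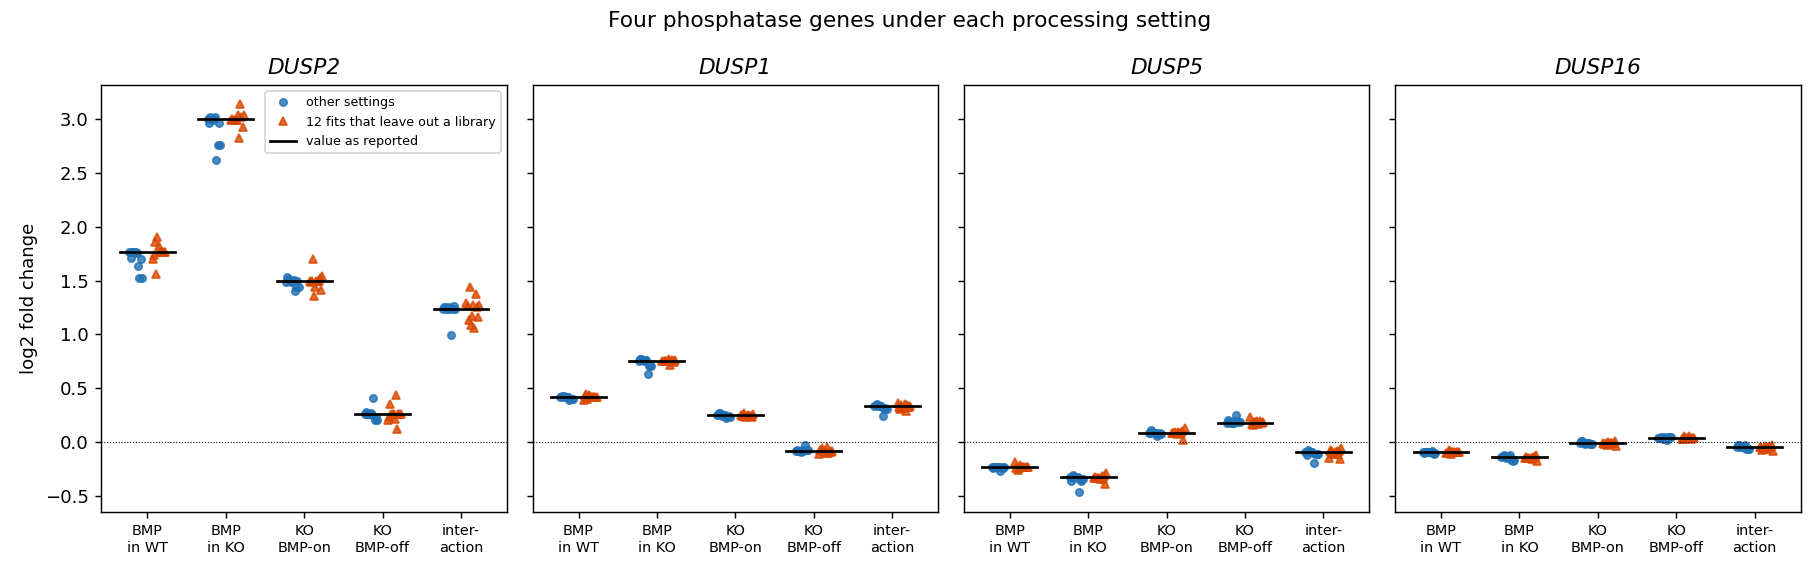
Log2 difference (y axis) of *DUSP2*, *DUSP1*, *DUSP5* and *DUSP16* in each comparison (x axis) under every processing setting, with blue circles for other settings, triangles for fits that leave out 1 library and black lines for the values reported. The widest move is *DUSP2* for BMP in KO, from 3.00 to 2.62 with the GC correction, and *DUSP1* for BMP stays above 0 throughout.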

How the data were processed

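RNA-seq gene counts of 12 libraries from a human lung cancer line were analysed. The authors removed ribosomal reads, aligned single-end reads to GRCh38 with GSNAP and counted reads over RefSeq gene exons (HTSeqGenie), and deposited raw counts and RPKM (reads per kilobase of gene model and per 1000000 reads, on the authors' library scale). The protocol names an unstranded low-input kit and a stranded kit without saying which was used. lncRNAs that overlap *DUSP1*, *DUSP6*, *DUSP8* and *DUSP16* and are in the table had at most 2 counts per library.

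Ensembl IDs were matched to symbols with GENCODE v44 (57532 of 58302 matched). Counts were tested with edgeR 4.0.16 (TMM, filterByExpr, robust quasi-likelihood F-test) in 1 fit of all 12 libraries and 4 groups, with Benjamini-Hochberg adjustment over 17188 genes and a threshold of 0.05. CPM uses TMM-scaled library sizes. Standard errors are the log2 fold change divided by the square root of F. Promoter sequences came from RefSeq. Alternatives were DESeq2 1.42.0, limma 3.58.1 (voom after quantile normalization), library-size scaling, no filter on low counts, a minimum of 10 counts per library, only the groups compared, a replicate block, a GC correction (loess, span 0.4), log2(RPKM + 1), with and without a mean RPKM filter of 0.1, log2(RPKM + 0.1), a fold threshold (absolute log2 of 1) and each library left out, in R 4.3.3.

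The members and gene lists were chosen with earlier results of these data known. All 10 members are named. Other genes named are *MIB1*, list genes past the 0.05 threshold (up to 4 per list and comparison) and, for *DUSP2* and the 2 other members with the lowest adjusted p for KO against WT with BMP-on, the 3 genes of highest Pearson r. Cell type markers are named as a check of the line. Replicates differed by 2.98 to 17.2 times counting variance, so no library was a copy. Tested on simulated data with 200 changed genes of 17188, the fit called 97% of changes of log2 size 1 for KO against WT with BMP-on and 90% for the difference of responses. It also called 13 and 10 unchanged genes, respectively. This recovery does not cover smaller changes, and every paralog difference reported here was smaller than log2 1.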

Additional observations from a re-analysis of the deposited data

How the results depend on the processing

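Of the values of *DUSP2*, the BMP difference in KO moved by more than the replicate spread, to 2.62 with the GC correction. Among the other 9 members, the 2 calls for BMP in WT became 1 (*DUSP1*) with limma-voom, with the RPKM settings log2(RPKM + 1), log2(RPKM + 0.1) and no filter, and with the replicate block, and leaving out 1 library gave 1 to 2. The 1 call for KO against WT with BMP-on became 0 to 1 when 1 library was left out. The 0 calls for the difference of responses became 1 (*DUSP1*) with DESeq2, with no filter (edgeR adjusted p = 0.0120), with the GC correction (edgeR adjusted p = 0.0320), without WT BMP-off replicate 1 (0.0259) and without KO BMP-off replicate 3 (0.0319), giving 0 to 1 over the libraries left out. With an absolute log2 difference of at least 1 also required, no paralog was called in any comparison (0 for BMP in WT, 0 for BMP in KO and 0 between genotypes with BMP-on). The cause of these moves was not tested.

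Replicate numbers did not pair the libraries: 2 of 18 same-numbered pairs had a correlation of deviations over 0.1 (range -0.187 to 0.189). With the replicate block the calls over all genes went from 674 to 529 for BMP in WT, 3777 to 3427 for BMP in KO, 630 to 479 between genotypes with BMP-on, 7 to 6 between genotypes with BMP-off and 16 to 3 for the difference of responses. With the GC correction these counts were 1542, 4246, 1268, 96 and 242. With no filter they were 1047, 4279, 859, 233 and 318, and with DESeq2 766, 3855, 670, 36 and 159. With only the groups compared in the fit, the count was 1000 for BMP in WT, 2522 for BMP in KO, 1237 between genotypes with BMP-on and 3 between genotypes with BMP-off. With log2(RPKM + 1) and no filter it was 284, 2365, 268, 9 and 22. With log2(RPKM + 1) it was 3 with BMP-off and 4 for the difference of responses, and with log2(RPKM + 0.1) it was 4 and 2. Scaling by library size gave 10 for the difference. Leaving out 1 library gave 366 to 1118, 2314 to 5323, 326 to 862, 2 to 50 and 4 to 236.

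Some differences, none of them called, changed sign. Not all of these lay near 0 as reported. For BMP in KO, *DUSP8* was reported at 0.14 and *DUSP9* at 0.19. *DUSP9* was also reported at 0.21 for KO against WT with BMP-off and at -0.20 for the difference of responses. For BMP in WT, *DUSP6* was -0.039 with limma-voom, -0.0036 with no filter, -0.0075 with log2(RPKM + 1), filtered or not, and -0.017 with log2(RPKM + 0.1), and *DUSP7* was -0.019 with the GC correction. For BMP in KO, *DUSP4* was -0.0076 with limma-voom, -0.023 with the GC correction, -0.020 with log2(RPKM + 1), filtered or not, and -0.022 with log2(RPKM + 0.1), and *DUSP7* was -0.022 with limma-voom. The GC correction gave -0.18 for *DUSP7*, -0.31 for *DUSP8* and -0.23 for *DUSP9* there. For KO against WT with BMP-on, *DUSP7* was -0.0065 with limma-voom and -0.046 with the GC correction, *DUSP9* was -0.0034 with DESeq2, -0.068 with limma-voom, -0.017 with the replicate block, -0.089 with the GC correction, -0.010 with log2(RPKM + 1), filtered or not, and -0.038 with log2(RPKM + 0.1), and *DUSP16* was 0.0086 with limma-voom and 0.014 with library-size scaling, which also gave 0.0067 for the *DUSP7* difference of responses. Leaving out 1 library gave, for BMP in WT, -0.12 to 0.12 for *DUSP6* and -0.048 to 0.18 for *DUSP7*, and for BMP in KO, -0.019 to 0.031 for *DUSP4*, -0.088 to 0.16 for *DUSP7* and -0.056 to 0.40 for *DUSP9*. For KO against WT with BMP-on it gave -0.019 to 0.039 for *DUSP7*, -0.19 to 0.18 for *DUSP9* and -0.039 to 0.011 for *DUSP16*, and with BMP-off -0.094 to 0.16 for *DUSP7*, -0.16 to 0.13 for *DUSP8* and -0.11 to 0.79 for *DUSP9*. For the difference of responses it gave -0.065 to 0.011 for *DUSP4*, -0.15 to 0.11 for *DUSP7* and -0.77 to 0.12 for *DUSP9*. At 15 to 86 counts per library, *DUSP8*, *DUSP9* and *DUSP10* could hide differences as wide as their intervals.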
